A study of Mus musculus with 7 samples.

Results

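The chemokine genes Ccl2, Ccl7, Ccl5, Cxcl1, Cxcl2, Cxcl5, Cxcl10, Cxcl12 and Cx3cl1 were read in RNA-seq of mouse embryonic fibroblasts (MEFs), a primary connective tissue cell culture. They were chosen by gene symbol, and they are 9 of the 49382 genes in the deposited table. The 7 libraries came from wild-type cells of embryos at E13.5 to E14.4, from which the head, the fetal liver and other red tissue had been taken away. The cells were used at passage 3 to 7 and seeded at 100000 per well, or 10000 per cm2. There was 1 library each for the control and for 6 conditions, which began after a night in culture. Oxidative stress was 10 μM sodium arsenite (NaAsO2) for 3 h, osmotic stress 100 mM added NaCl for 3 h, and ER stress 1 μM thapsigargin, a blocker of the ER calcium pump, for 10 h. Other cells were incubated in glucose-free or glutamine-free culture medium, or held at 0.1% oxygen (hypoxia), for 10 h. The study's methods describe no change of medium for the control. The control carries no time in its labels and serves both the 3 h and the 10 h conditions. The labels do not say how many embryos were pooled.

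Chemokines are small secreted proteins that direct the movement of leukocytes through receptors coupled to G proteins, and they are held on cell surfaces and matrix by heparan sulfate. The CC, CXC and CX3C classes are named after the spacing of their first cysteines. Fibroblasts make some of them at rest, such as Cxcl12, and others chiefly after inflammatory signals that act through NF-kB or interferon. In the set read here, Ccl2 and Ccl7 attract monocytes through Ccr2, Cxcl1, Cxcl2 and Cxcl5 attract neutrophils through Cxcr2, and Ccl5 and Cxcl10 attract T cells and other lymphocytes. Cxcl12 keeps blood progenitors and other cells in their niches through Cxcr4, and Cx3cl1 is a membrane-bound chemokine that is shed by Adam10 and Adam17.

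Levels are TPM, which is per transcript length and sums to 1000000 in each library, so the sequencing depth is unknown. Changes are log2(TPM + 1) of a condition minus that of the control, a scale that understates the change of low genes. With 1 library per condition there is no spread between cultures to set a difference against, so no test was made, neighbours in an order of levels cannot be told apart by their error, and "rose" and "fell" stand only for a change of more than 2-fold on this scale. The libraries had 19819 to 21154 genes above 0 TPM. Counts were made over the 12909 genes whose 7-library mean reached 2 TPM. The median of these genes shifted by -0.16 in oxidative stress, by -0.12 in osmotic stress and to within 0.1 of 0 in the other 4 conditions. Marker genes of the intended treatments rose in their own libraries, namely Hmox1 in oxidative stress (4.50), Akr1b3 in osmotic stress (2.66), Hspa5 in ER stress (3.44) and Bnip3 in hypoxia (4.85). Atf3 rose without glutamine (2.47), but more in ER stress (4.81) and oxidative stress (4.47), and also in osmotic stress (1.82). It is therefore not particular to glutamine depletion. Hmox1 also rose in ER stress (2.75). Txnip fell without glucose (-2.07) and further in osmotic stress (-3.12). All 9 fibroblast markers passed the filter, with a summed level of 6166 to 12813 TPM per library. Of the leukocyte genes read, C1qa and S100a9 were at 0 in all libraries, and the 13 macrophage markers together reached 8.48 to 18.5 TPM, with Cd68, a lysosomal gene that fibroblasts also express, the highest of them at up to 9.77 TPM. Summed markers were at most 0.823 TPM for neutrophils, 0.415 for lymphocytes and 0.787 for erythroid cells, 7.13 for endothelial cells and 11.6 TPM for epithelial cells, the last in ER stress and mostly Krt18.

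In the control library the 9 chemokines spanned from 0.150 to 407 TPM. Cxcl12 was highest, at 407 TPM, followed by Ccl2 at 64.9, Ccl7 at 56.2, Cxcl5 at 54.6 and Cx3cl1 at 32.0 TPM. Cxcl1 stood at 7.39 TPM, and Cxcl2 at 1.89, Ccl5 at 0.364 and Cxcl10 at 0.150 TPM were near or below the pseudocount. The untreated fibroblasts thus held a stromal chemokine, the monocyte attractants, 1 neutrophil attractant and Cx3cl1 at 32.0 to 407 TPM, and the lymphocyte attractants near 0.

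**Figure D1:**
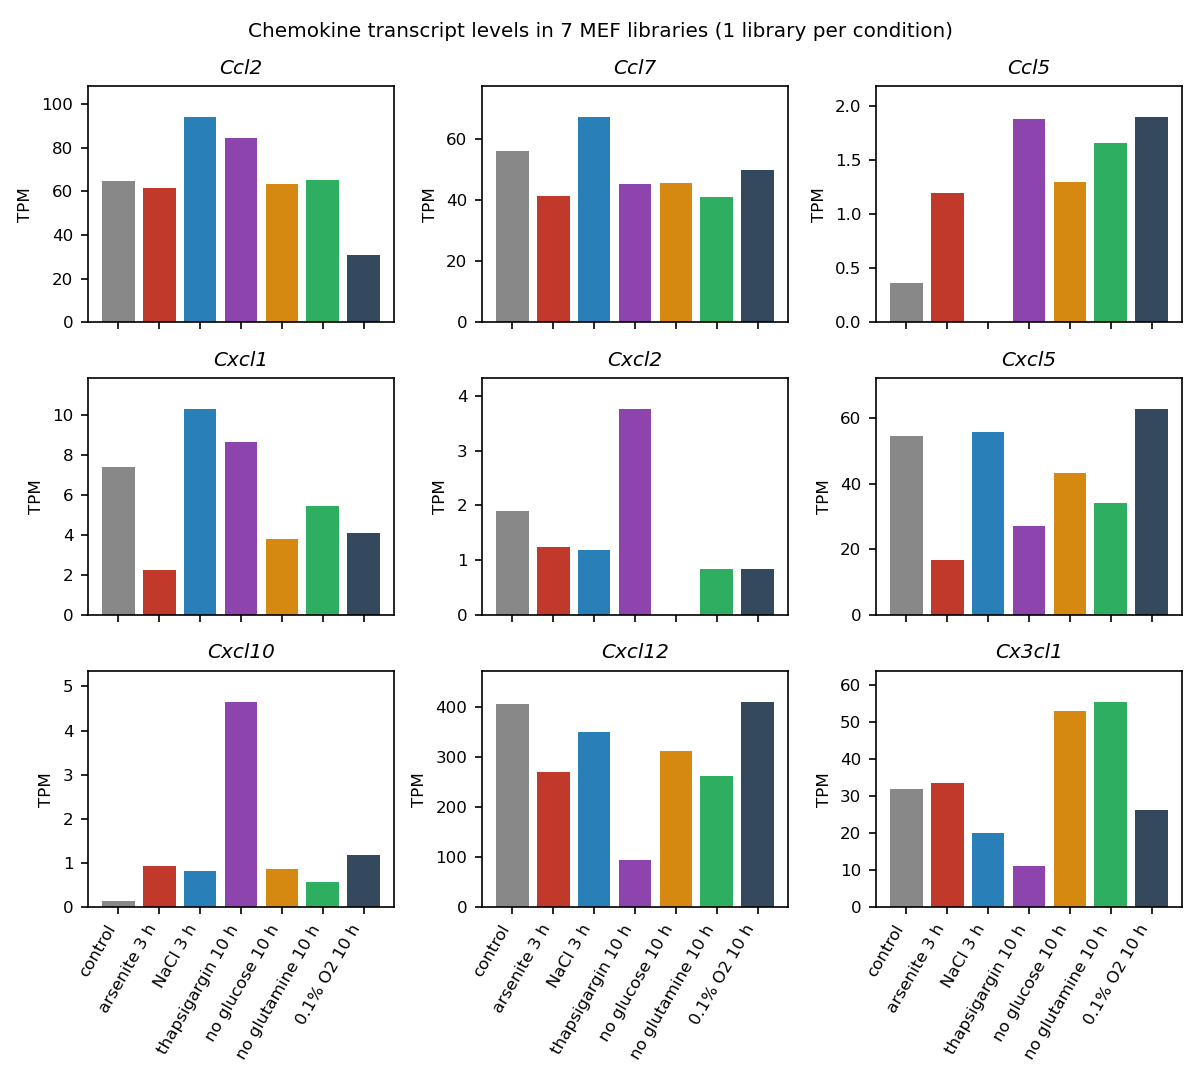
Bars show the TPM of each chemokine (vertical axis, from 0, with its own scale in each panel) in the 7 libraries (horizontal axis), 1 library per bar and therefore without error bars. Cxcl12 and Cx3cl1 are lowest under thapsigargin (94.4 and 11.2 TPM), Cxcl5 and Cxcl1 under arsenite (16.8 and 2.26 TPM), and Ccl2 at 0.1% oxygen (31.1 TPM). An absent bar is a gene listed at 0.

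Of the 9 chemokines, 6 passed the expression filter, namely Cxcl12, Ccl2, Ccl7, Cxcl5, Cx3cl1 and Cxcl1, and none of the 6 rose by more than 2-fold in any of the 6 conditions. Cxcl1 and Cxcl5 fell in oxidative stress, where 4.85% of all 12909 genes fell and 3.94% rose. Cxcl12 and Cx3cl1 fell in ER stress, where 11.0% of genes fell and 8.60% rose. Ccl2 fell in hypoxia, where 2.64% of genes fell and 3.57% rose. In osmotic stress, glucose depletion and glutamine depletion 0 of the 6 moved past 2-fold in either direction, beside 3.08% of genes up and 8.76% down, 1.83% up and 2.41% down, and 3.21% up and 3.21% down. Ccl7 stayed within 2-fold of the control in all 6 conditions. The median change of the 6 chemokines was -0.51 in oxidative stress, -0.65 in ER stress, -0.41 without glutamine, -0.31 without glucose, -0.22 in hypoxia and 0.14 in osmotic stress, against medians of all genes of -0.16, 0, -0.09, -0.02, -0.05 and -0.12. Each change shares the same control library, so the conditions are not independent of each other.

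**Figure D2:**
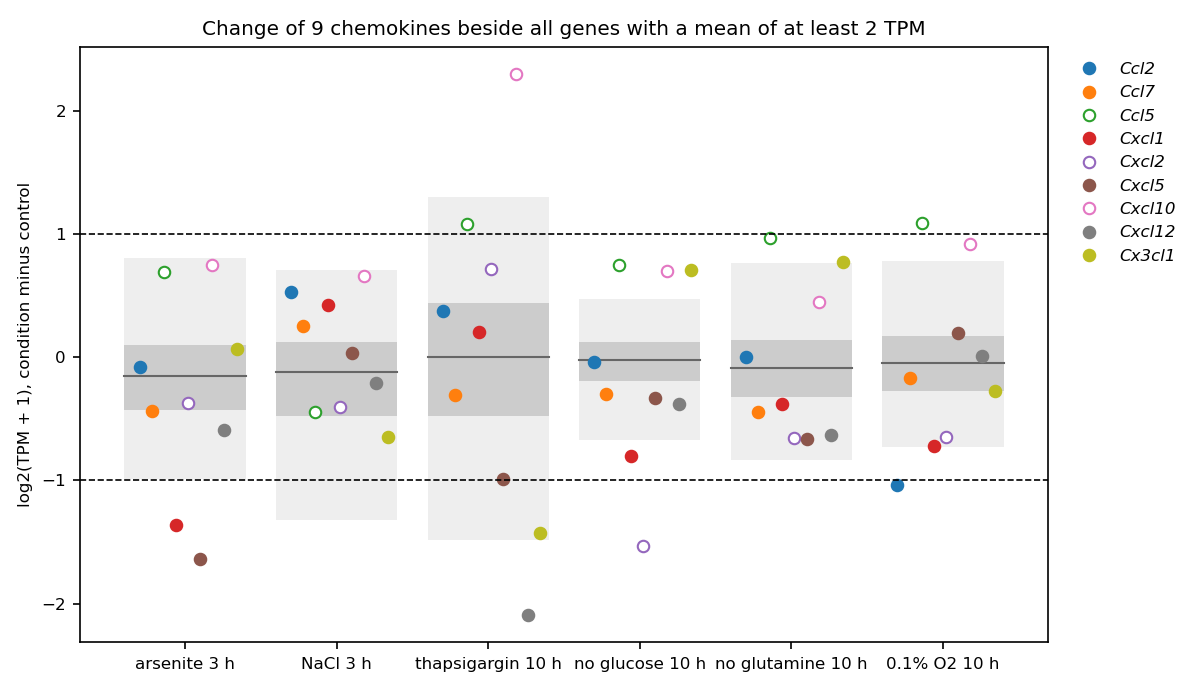
Points show the change of each chemokine against the control on the log2(TPM + 1) scale (vertical axis) in each condition (horizontal axis), filled for the 6 genes that passed the filter and open for the other 3. Light and dark grey bands span percentiles 5 to 95 and 25 to 75 of the 12909 genes, the grey line is their median, and dashed lines mark 2-fold. Above the upper dashed line lie only Cxcl10 under thapsigargin and Ccl5 there and at 0.1% oxygen, and below the lower line lie Cxcl5 and Cxcl1 under arsenite, Cxcl12 and Cx3cl1 under thapsigargin, Ccl2 at 0.1% oxygen and Cxcl2, listed at 0, without glucose.

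Cxcl12, the stromal chemokine, lies on chromosome 6 from 117168535 to 117181367 (GRCm38, plus strand). It measured 407 TPM in the control, 270 in oxidative stress, 351 in osmotic stress, 94.4 in ER stress, 312 without glucose, 262 without glutamine and 410 in hypoxia. The thapsigargin library was far below the other 6, which lay within a range of 262 to 410 TPM. The change in ER stress was -2.10, a 4.27-fold decrease on the TPM + 1 scale, and 2.34% of the 12909 genes had a lower value there. Hypoxia, at 0.01, was the condition closest to the control. In the same thapsigargin library all 9 fibroblast markers were below the control, with a median change of -0.86, and Col3a1 (-2.07), Lum (-2.33) and Pdgfrb (-1.15) fell. Fewer Cxcl12-producing cells and less Cxcl12 RNA per cell cannot be told apart in such bulk RNA, and the part of this shift of fibroblast genes in the Cxcl12 value was not tested.

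The promoter windows of Cxcl12 and Cx3cl1, the filtered chemokines that fell in ER stress, are shown here. That of Cxcl10, which did not pass the filter and was highest in ER stress, is shown further on. Whether promoter sequence has a part in any of these changes was not tested. RefSeq windows from 250 bases before to 50 after the RefSeq gene start (GRCm38.p6) were matched for 5 of the 9 genes. For Cx3cl1 the gene start given below, 94772009, comes from another annotation (GENCODE) and lies inside the window, upstream of the RefSeq start. Part of that window is therefore inside the gene as located below. Capitals mark the GC box core GGGCGG on either strand, which 35.7% of the 32851 windows of the same length hold, and the κB consensus, the binding motif of NF-kB, which 4.51% hold on either strand. The Cxcl12 window has 5 GC box cores, a pair of them overlapping, and the Cx3cl1 window 1. Neither has a match to the κB consensus in these 300 bases. Both windows are 64.7% G and C, higher than 81.1% of all windows.
Cxcl12 (chr6:117168285-117168584, plus strand): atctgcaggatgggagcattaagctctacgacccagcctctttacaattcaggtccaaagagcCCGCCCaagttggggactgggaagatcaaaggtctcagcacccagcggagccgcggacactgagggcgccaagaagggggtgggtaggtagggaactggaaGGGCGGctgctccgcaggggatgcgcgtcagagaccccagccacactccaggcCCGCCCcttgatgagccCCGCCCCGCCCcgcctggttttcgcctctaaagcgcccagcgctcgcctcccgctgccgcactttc
Cx3cl1 (chr8:94771930-94772229, plus strand): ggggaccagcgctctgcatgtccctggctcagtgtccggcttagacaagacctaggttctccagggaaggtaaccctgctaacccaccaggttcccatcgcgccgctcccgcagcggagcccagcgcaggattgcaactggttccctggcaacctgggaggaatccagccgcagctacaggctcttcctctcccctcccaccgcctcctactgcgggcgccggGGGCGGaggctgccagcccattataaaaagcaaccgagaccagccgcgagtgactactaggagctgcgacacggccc

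Cx3cl1, also called fractalkine, lies on chromosome 8 from 94772009 to 94782427 (plus strand). Its levels were 32.0 TPM in the control, 33.5 in oxidative stress, 20.1 in osmotic stress, 11.2 in ER stress, 52.8 without glucose, 55.4 without glutamine and 26.2 TPM in hypoxia. ER stress gave the lowest value, a change of -1.43 or a 2.69-fold decrease, and both libraries without a nutrient gave the highest. Any part of the change of medium in these highest values cannot be told apart from that of the missing nutrient. The changes without glucose (0.71) and without glutamine (0.78) did not reach 2-fold, while 97.2% and 95.1% of genes had a lower change in these libraries. Cx3cl1 was the only one of the 6 filtered chemokines above the control without glucose, and in glutamine depletion Ccl2 was level with the control (0.00) and the other 4 were below it. Its receptor gene Cx3cr1 was at 0.12 TPM or less in every library.

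The neutrophil attractants lie on chromosome 5 (plus strand), Cxcl5 from 90759360 to 90761624, Cxcl1 from 90891241 to 90893115 and Cxcl2 from 90903871 to 90905938. Cxcl5 and Cxcl1 are separated by 130 kb and Cxcl1 and Cxcl2 by 10.8 kb. Cxcl5 measured 54.6 TPM in the control, 16.8 in oxidative stress, 55.9 in osmotic stress, 27.0 in ER stress, 43.3 without glucose, 34.0 without glutamine and 62.7 in hypoxia. The arsenite library was lowest and the thapsigargin library next, and the osmotic and hypoxic libraries were at or above the control. The change in oxidative stress was -1.64, or a 3.12-fold decrease, and -1.48 relative to the median of all genes. In ER stress it was -0.99, just inside 2-fold, and just past it with a pseudocount of 0.1 TPM (-1.01) or without mitochondrially encoded genes (-1.01).

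Cxcl1 showed 7.39 TPM in the control, 2.26 in oxidative stress, 10.3 in osmotic stress, 8.64 in ER stress, 3.80 without glucose, 5.45 without glutamine and 4.08 TPM in hypoxia. Arsenite again gave the lowest value, with a change of -1.36 (a 2.57-fold decrease), or -1.21 relative to the median of all genes. The osmotic and ER stress libraries were above the control, by 0.43 and 0.20. Cxcl5 and Cxcl1 thus shared their lowest library. The ratio of their TPM values was 7.40 in the control and 7.46 under arsenite, lower under thapsigargin (3.13), and higher in hypoxia (15.4) and without glucose (11.4). At 7.39 TPM in the control Cxcl1 is sensitive to the pseudocount, and with 5 TPM in place of 1 its change in oxidative stress was -0.77.

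Cxcl2 did not pass the filter. It was at 1.89 TPM in the control, 1.24 in oxidative stress, 1.19 in osmotic stress, 3.75 in ER stress, 0.838 in glutamine depletion and 0.845 TPM in hypoxia, and it was listed at 0 in glucose depletion. The thapsigargin library was its highest, at a change of 0.72. Of the 31-base words in its transcripts, 7.59% also occur in Cxcl3, a close copy, so reads may be split between them. No such word of Cxcl1, Ccl2, Ccl7 or Cx3cl1 occurs in another gene.

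Cxcl1 and Cxcl2, whose windows were both matched, each have κB matches, which are shown because NF-kB is the known inducer of these genes. They are given in 60-base stretches with the match in capitals. The match begins 71 bases before the start in Cxcl1 and 97 bases before it in Cxcl2, and since it reads almost the same on both strands, each stretch holds 2 overlapping matches. The Cxcl2 window also has 1 GC box core, 139 bases before the start and outside the stretch.
Cxcl1 (chr5:90891149-90891208, plus strand): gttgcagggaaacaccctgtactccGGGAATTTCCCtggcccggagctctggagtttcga
Cxcl2 (chr5:90903777-90903836, plus strand): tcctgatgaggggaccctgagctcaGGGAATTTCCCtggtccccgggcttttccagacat

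The 3′ untranslated regions of these mRNAs were read for ATTTA (with U for T in the RNA), the core of AU-rich elements that mark short-lived inflammatory mRNAs. The Cxcl1 region, 592 bases long, holds 7 copies, more than 99.5% of the 2377 regions of 0.8 to 1.25 times its length. The Cxcl2 region, 734 bases long, holds 11, against a median of 1 over 2589 regions of like length. The overlapping form ATTTATTTA occurs 2 times in Cxcl1 and 4 times in Cxcl2, and 2.82% and 2.90% of the regions of like length hold it at all. It is in none of the other 7 members, whose ATTTA counts were 5 in Cxcl5 (1111 bases), 4 in Cxcl12 (5188 bases), 2 in Ccl7 (435 bases), 2 in Cxcl10 (729 bases), 1 in Ccl2 (275 bases), 1 in Cx3cl1 (1871 bases) and 0 in Ccl5 (199 bases). The first such site of Cxcl1 and Cxcl2 is printed with that of Ccl2 for contrast, with ATTTA in capitals.
Cxcl1 (bases 80 to 109 after the stop codon): agggtcctATTTATTTAtgtATTTATTTAt
Cxcl2 (bases 116 to 145 after the stop codon): gttcacttATTTATTTAtctatgtATTTAt
Ccl2 (bases 32 to 61 after the stop codon): ttaaacttATTTAacttattgatgttatgg

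The monocyte attractants Ccl2 and Ccl7 are neighbours on chromosome 11 (plus strand), Ccl2 from 82035571 to 82037453 and Ccl7 from 82045712 to 82047525, 8.26 kb apart. Ccl2 was at 64.9 TPM in the control, 61.3 in oxidative stress, 94.1 in osmotic stress, 84.6 in ER stress, 63.3 without glucose, 65.1 without glutamine and 31.1 TPM in hypoxia. Hypoxia was the single low library, and the control, arsenite and both nutrient-depleted libraries lay between 61.3 and 65.1 TPM. The change in hypoxia was -1.04 (a 2.05-fold decrease), close to the 2-fold line, and it was -0.99 relative to the median of all genes and -0.95 with a pseudocount of 5 TPM. Only 2.47% of genes had a lower change there. The osmotic value was the highest, at a change of 0.53, above 92.6% of genes.

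Ccl7 was steadier, at 56.2 TPM in the control, 41.3 in oxidative stress, 67.1 in osmotic stress, 45.3 in ER stress, 45.5 without glucose, 41.0 without glutamine and 49.8 TPM in hypoxia. Its highest value was 1.64 times its lowest, against 3.03 times for Ccl2. Osmotic stress was the top library for both neighbours. In hypoxia, where Ccl2 fell, Ccl7 changed by -0.17, and the ratio of Ccl2 to Ccl7 was 0.625, compared with 1.16 in the control and 1.87 in ER stress.

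The lymphocyte attractants Ccl5 (chromosome 11, 83525778 to 83530518, minus strand) and Cxcl10 (chromosome 5, 92346638 to 92348889, minus strand) were close to 0 and did not pass the filter. Cxcl10 was lowest in the control, at 0.150 TPM, and measured 0.926 in oxidative stress, 0.814 in osmotic stress, 4.65 in ER stress, 0.870 without glucose, 0.572 without glutamine and 1.18 TPM in hypoxia. The thapsigargin library stood apart from the other 6, none of which exceeded 1.18 TPM. Its change was 2.30 on the log2(TPM + 1) scale, 0.91 with a pseudocount of 5 TPM, and 1.60 against the median of the 7 libraries in place of the control, which was the lowest of the 7. Ccl5 was at 0.364 TPM in the control, 1.20 in oxidative stress, 1.88 in ER stress, 1.29 without glucose, 1.66 without glutamine and 1.90 TPM in hypoxia, and was listed at 0 in osmotic stress. Its values in ER stress and hypoxia passed 2-fold against the control (1.08 and 1.09) but were still under 2 TPM. Against the median of the libraries, they were 0.33 and 0.34.

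The Cxcl10 window is shown because this gene had the largest increase of the set, in the ER stress library. It has matches to the κB consensus 159 and 103 bases before the start, in capitals. It also has 1 match to the interferon-type repeat GAAANNGAA, 213 bases before the start, which 8.56% of windows hold, and 1 to the AP-1 element TGANTCA, 74 bases before it, which 7.81% hold on either strand. Its share of G and C is 50.3%, against a median of 52.7% over all windows. The cAMP element TGACGTCA, in 1.79% of windows, and the ER stress element, in 0.119%, were found in none of the 5 windows, and ACGTG, the core of the hypoxia element, in 19.6% of windows, was found in Cxcl1 alone. Of the 31-base words in the Cxcl10 transcripts, 4.47% also occur in the overlapping gene Art3.
Cxcl10 (chr5:92348840-92349139, minus strand): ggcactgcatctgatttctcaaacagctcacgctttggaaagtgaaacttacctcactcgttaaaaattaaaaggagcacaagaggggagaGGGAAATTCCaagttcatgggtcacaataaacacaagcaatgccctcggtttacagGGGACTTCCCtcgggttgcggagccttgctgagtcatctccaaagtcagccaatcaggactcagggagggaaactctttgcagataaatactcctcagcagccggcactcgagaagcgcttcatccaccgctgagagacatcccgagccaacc

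Summed over the 9 chemokines, the control library held 624 TPM, and the condition libraries 429 in oxidative stress, 600 in osmotic stress, 281 in ER stress, 523 without glucose, 466 without glutamine and 588 TPM in hypoxia. Cxcl12 made up 65.1% of the sum in the control, 69.8% in hypoxia and 33.5% in ER stress. Without Cxcl12, the sums spanned 159 TPM in oxidative stress to 249 TPM in osmotic stress, with the control at 218 TPM. The ratio of Cxcl12 to Ccl2 was 6.26 for the control, 13.2 in hypoxia and 1.12 in ER stress, and lay between 3.73 and 4.93 in the other 4 conditions. The ratio was thus lowest in ER stress, where Cxcl12 fell, and highest in hypoxia, where Ccl2 fell.

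The rest of the chemokine system was read from lists of 29 other ligands, 23 receptors and 13 genes of cleavage, shedding and retention. Of the other ligands, 9 passed the filter. In ER stress 3 of them rose and 3 fell, with a median change of 0.46, beside 8.60% up, 11.0% down and a median of 0 over all genes. Ccl20, which attracts cells that carry Ccr6, went from 1.75 TPM in the control to 35.3 in ER stress (3.72), 10.2 in glutamine depletion (2.03) and 5.95 in glucose depletion (1.34), and was between 1.26 and 2.94 TPM in the other 3 conditions. It was the single ligand of the 9 that passed 2-fold outside ER stress. Cxcl16, a membrane-bound chemokine that is shed like Cx3cl1, rose in ER stress from 3.03 to 7.88 TPM (1.14), so the shed ligands moved in opposite directions there. Ccl27a rose as well (1.10). Cxcl14, a further chemokine made by resting stroma, fell from 77.9 to 17.3 TPM (-2.11), near the change of Cxcl12, and Ppbp (-1.47) and Cxcl15 (-1.21) fell with it.

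One receptor of the 23, Ackr3, passed the filter. Ackr3 binds and clears Cxcl12. It measured 17.4 TPM in the control, 22.6 in oxidative stress, 12.7 in osmotic stress, 3.61 in ER stress, 14.43 without glucose, 25.5 without glutamine and 32.9 TPM in hypoxia. Ackr3 thus fell in ER stress (-2.00), in the same library as its ligand, and was highest in hypoxia, at 0.88, where Cxcl12 was level with the control. Of the 11 filtered genes that cut, shed or retain chemokines, 6 fell and 0 rose in ER stress, with a median change of -1.04, where 11.0% of all genes fell and their median change was 0. These were Sdc4 (-2.61), Sdc1 (-1.74) and Sdc3 (-1.35), which carry heparan sulfate on the cell surface, Ext2 (-1.04), which builds the heparan sulfate chain, and the matrix metalloproteinases Mmp14 (-1.75) and Mmp2 (-1.29), which can cut Cxcl12. The sheddases Adam10 and Adam17 stood at -0.78 and -0.45 in that library. In the other 5 conditions 0 of the 11 moved past 2-fold. Of all genes 1.83% to 3.94% rose and 2.41% to 8.76% fell in those conditions. The highest values of the 11 were 0.86 for Sdc4 in glutamine depletion and 0.66 for Sdc3 in hypoxia.

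**Figure D3:**
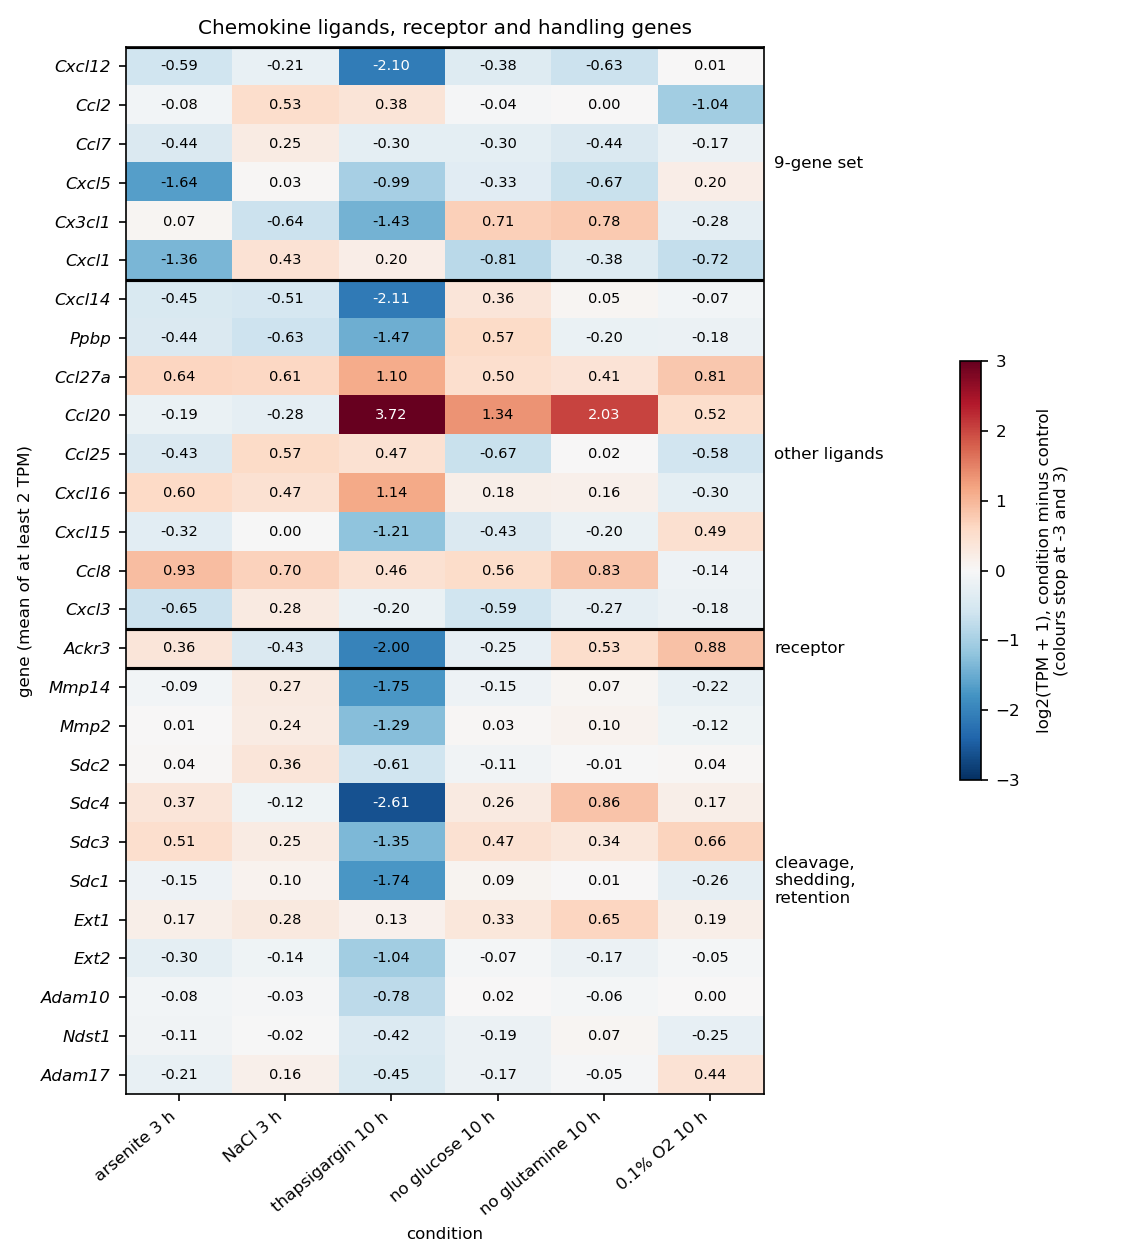
Each cell gives the change against the control on the log2(TPM + 1) scale of a gene (listed downwards in order of mean TPM within each block) in a condition (across), with blue for lower and red for higher, and colours stop at -3 and 3. The thapsigargin column holds the most changes past 2-fold, with Cxcl12 (-2.10), Cxcl14 (-2.11), Ackr3 (-2.00) and Sdc4 (-2.61) lower and Ccl20 (3.72) higher.

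NF-kB and interferon signals are the best known inducers of these genes, and lists of 17 and 20 of their targets were read beside them. Of the 16 NF-kB genes that passed the filter, 3 rose and 2 fell in ER stress, beside 8.60% and 11.0% of all genes, so the number that fell was near the share of all genes. Nfkb2 (1.38), Relb (1.03) and Nfkbib (1.32) rose, and Nfkbia, the inhibitor that NF-kB induces in feedback, went from 36.7 to 17.5 TPM (-1.03), while Bcl3 fell too (-1.37). In oxidative stress, where Cxcl5 and Cxcl1 fell, 0 of the 16 passed 2-fold in either direction, beside 3.94% of all genes up and 4.85% down. Their median change was 0.06, against -0.16 for all genes. The feedback inhibitor Tnfaip3, at 2.57 TPM in the control, rose in osmotic stress (1.17), glutamine depletion (1.69) and hypoxia (1.20). It was the only 1 of the 16 to rise there, beside 3.08%, 3.21% and 3.57% of all genes. The median change of the 16 was -0.31, 0.23 and -0.05 in these libraries, and Bcl3 fell in osmotic stress (-1.19). None of the 6 filtered chemokines rose in those libraries, a count near the 3.08%, 3.21% and 3.57% of all genes that rose.

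Of the 12 filtered interferon response genes, 0 rose in oxidative stress, osmotic stress, glucose depletion, glutamine depletion and hypoxia. Of all genes 3.94%, 3.08%, 1.83%, 3.21% and 3.57% rose there. In ER stress 1 rose and 1 fell, beside 8.60% and 11.0% of all genes, so both counts were near these shares. The gene that rose was Isg15, an interferon-induced ubiquitin-like protein, from 8.33 to 19.2 TPM (1.11), in the library in which Cxcl10 was highest. Irf1, a transcription factor of the same response, went the other way there, from 26.6 to 6.40 TPM (-1.90), and to 3.36 TPM in osmotic stress (-2.66). In glutamine depletion 4 fell, with Ifit3 at -1.60, where 3.21% of all genes fell. In oxidative and osmotic stress 3 each fell, beside 4.85% and 8.76% of all genes, with all 12 below the control in the former. In hypoxia 1 fell, Ifit3 at -1.06, beside 2.64% of all genes. The next highest value after Isg15 was that of Irf7, at 0.76 in osmotic stress. The median change of the 12 was -0.54 in ER stress and -0.70 in glutamine depletion, against 0 and -0.09 for all genes.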

How the data were processed

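RNA-seq was performed on 7 libraries of MEFs, 1 per condition. The authors aligned the reads with kallisto 0.43.1 (version from the submitters' processing notes) against the cDNA transcripts of GRCm38 and deposited gene values as TPM, adding up each gene's transcripts. From these, log2(TPM + 1) was computed and the control subtracted. The pseudocount and the 2-fold rule follow the study's methods, and genes were counted if their TPM averaged 2 or more. Rows of the same symbol were summed in the lists. Depth is unknown, and no interval or test was possible. Members and lists were chosen with earlier results of these data known. All 9 members are reported. From each list, the 2 genes with the largest and the 2 with the smallest change are named, and others with a role beside a member were added after their values were seen. Some genes that this rule names are not reported here. Positions, transcripts and 3′ untranslated regions (the first-numbered transcript of each member, and the longest region of each of 21022 protein-coding genes) came from GENCODE M21 on GRCm38, and promoters from RefSeq. Python 3.11.15, numpy 2.4.6 and pandas 2.3.3 were used, and the counting step was tested on simulated data.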

Additional observations from a re-analysis of the deposited data

How the results depend on the processing

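The 12 counts of filtered chemokines up or down were recomputed under 9 alternatives, and 91 of 108 values stayed within 1.5 times the original, with no change of direction among single values past 2-fold. Most of the 12 counts were 0 at the original setting, so many of these values are a 0 that stayed 0. The counts above 0, those that fell in oxidative stress, ER stress and hypoxia, each moved under at least 1 alternative. The values that moved by more than 1.5 times were as follows, and the cause was not tested beyond what each setting does by itself. With a pseudocount of 5 TPM, 1 chemokine fell in oxidative stress and 0 in hypoxia, beside 1.87% and 1.55% of all genes. Without the filter, which adds Ccl5, Cxcl2 and Cxcl10, 2 rose in ER stress, beside 3.45% of all 49382 genes. Also without it, 1 rose in hypoxia, beside 1.74%, and 1, Cxcl2 listed at 0, fell in glucose depletion, beside 1.35%. With a mean of at least 10 TPM, which removes Cxcl1, 1 fell in oxidative stress, beside 2.83% of 8819 genes. At 1.5-fold, 1 fell in osmotic stress, beside 19.5% of all genes, so this count was near that share. At that threshold 1 rose and 1 fell in glucose depletion, beside 3.47% and 6.23% of all genes. In glutamine depletion 1 rose and 2 fell, beside 7.47% and 10.6%, and in hypoxia 2 fell, beside 8.1%. At 3-fold, 1 fell in oxidative stress, 1 in ER stress and 0 in hypoxia, beside 1.6%, 4.31% and 1.45% of all genes. After centring on the median of all genes, 0 fell in hypoxia, beside 2.41% of all genes. With the median of the 7 libraries as the reference, 1 fell in oxidative stress, beside 1.74% of all genes. A pseudocount of 0.1 TPM and the removal of mitochondrially encoded genes moved none of the counts by over 1.5 times, though under both 3 rather than 2 fell in ER stress, with Cxcl5 added. Under these settings, in that order, 13.2% and 11.4% of all genes fell in ER stress. Cxcl12 and Cx3cl1 in ER stress and Cxcl5 in oxidative stress were past 2-fold under each of the 5 alternatives that recompute single changes. Ccl2 in hypoxia was not, with values of -0.95 (pseudocount of 5 TPM) and -0.99 (centred), nor was Cxcl1 in oxidative stress, with -0.77 (pseudocount of 5 TPM) and -0.99 (median reference). Leaving out a replicate was not possible with 1 library per condition, so the size of chance differences between cultures is unknown. No paired analysis was possible because no condition has a second library.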

Other observations

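Of 12 inflammatory cytokine and enzyme genes, 4 passed the filter. Ptgs2, the inducible enzyme of prostaglandin synthesis, went from 83.8 TPM in the control to 489 in oxidative stress (2.53), 420 in osmotic stress (2.31) and 667 TPM in glutamine depletion (2.98). None of the 6 filtered chemokines rose in these libraries, where 3.94%, 3.08% and 3.21% of all genes rose. This count of 0 was near these shares. Tslp, an epithelial and stromal cytokine, fell in oxidative stress from 24.0 to 9.78 TPM (-1.21), as Cxcl5 and Cxcl1 did. Il6 did not pass the filter and was between 0.200 and 4.80 TPM. Tnf was at 0.14 TPM or less in each library, and Il1b was at 0 in all.

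Factors that act on AU-rich or stem-loop elements of mRNAs, most of which speed decay, were read because of the ATTTA copies in Cxcl1 and Cxcl2. All 9 passed the filter, among them the stem-loop factors Rc3h1, Rc3h2 and Zc3h12a and the stabilising factor Elavl1, none of which passed 2-fold in any condition. Zfp36, which binds such elements, rose in oxidative stress from 16.3 to 44.0 TPM (1.38), as did 3.94% of all genes. Cxcl1 was lowest in that library, while Cxcl2 changed by -0.37. In glutamine depletion Zfp36 stood at 33.4 TPM (0.99), and Cxcl1 changed by -0.38. Zfp36 and Cxcl1 were both below the control without glucose (-0.11 and -0.81) and in hypoxia (-0.38 and -0.72). Both were above it in osmotic stress (0.14 and 0.43), and in ER stress they lay on opposite sides (-0.23 and 0.20). Zfp36l1 fell in ER stress (-1.04), where Cxcl1 and Cxcl2 were above the control. Hnrnpd had its smallest value in hypoxia (-0.83), and Zfp36l2 its largest in glutamine depletion (0.80) and its smallest in oxidative stress (-0.78). Whether these changes have a part in the chemokine levels was not tested.

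The genes whose log2(TPM + 1) over the 7 libraries was most like that of 4 chemokines were found among 8814 genes averaging 10 TPM or more, as a description over 7 libraries that share normalization to 1 total. For Ccl2 they were Il1rap (Pearson r = 0.97), Degs1 (0.96) and Pprc1 (0.95). For Cxcl1 they included Rps23-ps1 (0.96) and Dnm2 (0.96). For Cxcl10 they were Mbd2 (0.99), Suco (0.99) and Ascc3 (0.98), all highest in ER stress. For Cxcl12 they were H2-T22 (0.99), Evc (0.99) and Ifitm3 (0.99), all lowest in ER stress.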
